A study of Mus musculus with 6 samples.

Results

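Death receptor signalling and its inhibitors were followed through 10 genes, namely Fas, Fasl, Tnfsf10, Fadd, Casp8, Cflar, Birc2, Birc3, Traf1 and Traf2. Every non-control probe whose accession maps to one of these symbols in RefSeq was kept, which gave 11 of the 41006 probes and 9 of the 10 genes. Fas and Birc2 had 2 probes each. Casp8, the initiator caspase of the pathway, was matched by no probe accession and was not analysed here. All 11 probes were well above background in both channels on all 6 arrays and none was saturated, so none was lost to the filter on dim spots.

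The tissue was mesenteric lymph node of adult naive mice, with no challenge named in the labels. The labels give strain B-TNF KO for the group called B_TNF_KO here and strain TB-TNF KO double for the group called TB_TNF_KO, both as gene knock-outs, and the series title speaks of TNF from T cells and B cells. Thus B cell TNF is targeted in both groups, and T cell TNF in TB_TNF_KO as well. The allele and the promoter that drives the deletion are not given in the sources used here, and no wild-type node was analysed here. Each group had 3 arrays, and each array held RNA pooled from the nodes of 3 mice in Cy3 against a common pool of RNA from 11 mouse cell lines in Cy5. Values are log2 ratios of sample over reference, and a difference is TB_TNF_KO minus B_TNF_KO on that scale.

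Death receptors are members of the TNF receptor family that carry a death domain in the cytoplasm. When FAS ligand binds FAS, or TRAIL its receptors, the adaptor FADD gathers caspase-8, whose activation starts apoptosis. The caspase-8 homologue c-FLIP, encoded by Cflar, competes for that complex. The cellular inhibitors of apoptosis encoded by Birc2 and Birc3 are ubiquitin ligases that are brought to TNF receptors by TRAF1 and TRAF2, and there they favour survival and NF-kB signalling over death. In lymph nodes FAS and FAS ligand are known for removing activated and self-reactive lymphocytes.

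Several results turn on which oligonucleotide was read, so the probes that agree or disagree are shown as deposited, 5′ to 3′. The 2 Fas probes and the dimmer Birc2 probe are whole, at 60 bases, and the first 30 bases are given for the other pair.
Fas, brighter probe: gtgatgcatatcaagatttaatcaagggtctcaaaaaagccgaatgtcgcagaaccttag
Fas, dimmer probe: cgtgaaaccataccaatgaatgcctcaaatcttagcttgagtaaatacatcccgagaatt
Birc2, dimmer probe: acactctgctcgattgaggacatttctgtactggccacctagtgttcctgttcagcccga
Birc2, brighter probe: gtgagaaatatattaaagtgtttcttttaa
Cflar: gactactgtggaaagctttcttttagtctc
The GC content was 36.7% for the brighter and 51.7% for the dimmer Birc2 probe and 38.3% for Cflar. No member probe shared more than 9 bases in a row with another member probe, the Birc2 and Birc3 probes included, although the genes are close paralogs. Each of the 11 sequences was on the array once.

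Some arrays stood apart. Between arrays 1 and 2 of TB_TNF_KO the log2 sample signals differed with an SD of 0.17 across probes, less than the 0.18 of their reference signals, which come from 1 RNA. In each of the 14 remaining pairs of arrays the sample signals differed more than the reference signals. These arrays differed by less than the technical noise, so their mean was used as 1 sample and n was 3 against 2. On the Y-linked gene Eif2s3y both lay at -2.81 and -2.84, although array 1 is labelled male and array 2 female, while the other 4 arrays, all labelled male, lay between 0.59 and 1.83. Of the samples compared, 1 of 2 in TB_TNF_KO thus had the low Y-linked signal, and all 3 in B_TNF_KO the higher. Sex may therefore be unbalanced between the groups, and its part in the differences was not tested. The median log2 ratio of 7 exocrine pancreas markers lay between 2.90 and 4.09 on arrays 1 and 2 of both groups, but was 0.10 on array 3 of B_TNF_KO and 0.021 on array 3 of TB_TNF_KO. The medians of 8 B cell markers (2.75 to 3.21) and 7 T cell markers (2.58 to 3.01) were far above the reference on every array. The targeted gene Tnf differed by -1.09 (SE 0.10) by its brighter and by -0.26 (SE 0.06) by its dimmer probe. The probes were not placed against the deletion, so these values cannot serve as a check of the genotype labels. Median background-subtracted intensity was 144 to 203 in the sample channel and 280 to 362 in the reference channel. The software's extraction day held 1 group each, so day and group cannot be told apart.

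Each of the 9 measured genes had log ratios above 0 after loess normalisation within each array. Such a ratio does not by itself mean a higher raw signal than in the cell line pool. On the TB_TNF_KO arrays, background-subtracted Cflar intensity was 282 to 360 in the sample channel and 533 to 612 in the reference channel. For Birc3 it was 2953 to 4092 and 1666 to 1825. The log ratio was above 0 on all 6 arrays for 11 of 11 member probes, against 31.9% of all probes tested, and at or above 1 on all 6 arrays for 4 of 11, against 3.84% of all probes. Dyes were not swapped, so the direction of these ratios is open to dye bias. The ratio was highest for Birc3 in both groups, and the lowest group means were those of the dimmer Birc2 probe, Traf2 and Cflar.

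**Figure D1:**
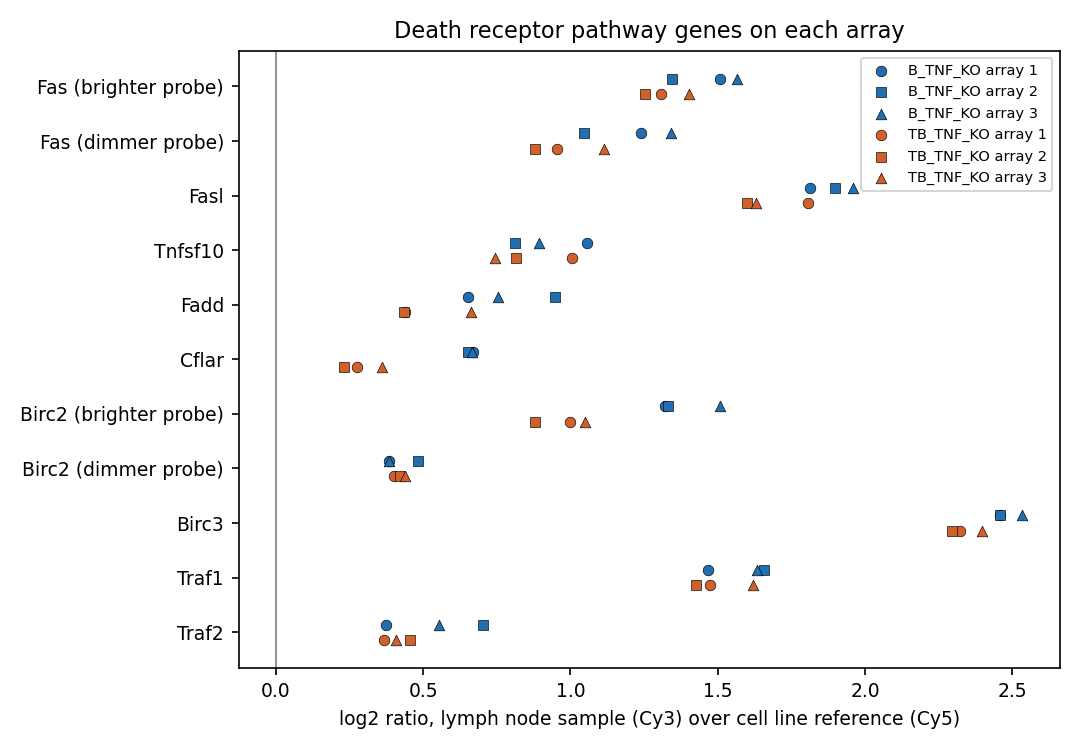
Log2 ratio of lymph node sample over cell line reference (x axis) for the 11 probes (y axis), 1 point per array. Blue points are the 3 B_TNF_KO arrays and orange points the 3 TB_TNF_KO arrays, with the array number as the marker shape. Cflar, Birc3, Fasl and the brighter Birc2 probe have every orange point below every blue point.

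The comparison of the groups asks which of these transcripts differed when TNF was removed from T cells as well as B cells. With limma, 0 of the 11 member probes passed a Benjamini-Hochberg adjusted p of 0.05 over all 40791 probes tested, where 6 probes passed in the lower direction (0.0147%) and 0 in the higher (0.00%). At an unadjusted p under 0.05, 4 of 11 member probes were lower and 0 higher, against 11.2% lower and 5.02% higher among all probes. Lower values were seen for 10 member probes and a higher value for 1, where 55.0% of all probes had lower values. The median difference of the member probes was -0.13, against -0.011 for all probes. With each channel normalised on its own, it was -0.10 in the sample channel, against -0.0049 for all probes. In the reference channel, which holds no node RNA, it was -0.12, against -0.022 for all probes. In bulk nodes, fewer cells of a type and less RNA per cell cannot be told apart.

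Among receptor and ligands, Fas encodes the death receptor itself. Its brighter probe had log2 ratios of 1.51, 1.35 and 1.57 on the 3 B_TNF_KO arrays and 1.31, 1.25 and 1.40 on the 3 TB_TNF_KO arrays. The groups overlapped, since TB_TNF_KO array 3 lay above B_TNF_KO array 2. Means were 1.47 ± 0.11 (SD, n = 3) and 1.34 ± 0.09 (SD, n = 2), a difference of -0.13 (SE 0.08, 95% interval -0.32 to 0.06, adjusted p = 0.50). The dimmer Fas probe gave 1.24, 1.05 and 1.34 in B_TNF_KO and 0.95, 0.88 and 1.11 in TB_TNF_KO, again with overlap at the same arrays. It differed by -0.19 (SE 0.10, adjusted p = 0.43). Both probes thus had lower values, and the gap between them, brighter minus dimmer, was 0.26 ± 0.04 (SD, n = 3) against 0.33 ± 0.05 (SD, n = 2) in B_TNF_KO and TB_TNF_KO (two-sided exact permutation test, p = 0.30, where 0.10 is the smallest possible). With the replicate number as a block and the 6 arrays counted separately, the dimmer Fas probe passed in limma (-0.23, adjusted p = 0.038) and the brighter did not, in a fit where 6.21% of all probes passed as lower and 1.81% as higher; Cflar (-0.37, adjusted p = 0.015) and the brighter Birc2 probe (-0.41, adjusted p = 0.014) passed there too. That fit counts TB_TNF_KO arrays 1 and 2 as separate samples, so its p-values are too small if they held 1 RNA.

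Fasl encodes FAS ligand, made by activated T cells and NK cells. It read 1.81, 1.90 and 1.96 in B_TNF_KO and 1.81, 1.60 and 1.63 in TB_TNF_KO. TB_TNF_KO array 1 lay just under B_TNF_KO array 1, by less than the spread within either group, and the other TB_TNF_KO arrays lay below every B_TNF_KO array. Means were 1.89 ± 0.07 (SD, n = 3) and 1.67 ± 0.05 (SD, n = 2), and the difference was -0.22 (SE 0.06, 95% interval -0.37 to -0.08, unadjusted p = 0.0091, adjusted p = 0.15 in limma). Beside it, the median of 7 T cell markers ran from 2.83 to 3.01 over the B_TNF_KO arrays and from 2.58 to 2.81 over the TB_TNF_KO arrays, and that of 6 NK and cytotoxic markers 1.39 to 1.41 and 1.16 to 1.36. All of these markers were well above background on all 6 arrays. Their summed background-subtracted sample intensity, not normalised between arrays, was 28745 to 39039 in B_TNF_KO against 20093 to 27525 in TB_TNF_KO for T cells, and 10082 to 12453 against 7573 to 9625 for NK and cytotoxic cells. The median over all spots was lower on 2 of 3 TB_TNF_KO arrays than on any B_TNF_KO array too, and in the normalised sample channel the median difference was -0.033 for the T cell and 0.012 for the NK and cytotoxic markers. Of the 7 T cell markers 2, and of the 6 NK and cytotoxic markers 2, were lower in the log ratio at an unadjusted p under 0.05, against 11.2% of all genes, with median differences of -0.09 and -0.10. Their part in the Fasl values was not tested.

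Tnfsf10 encodes TRAIL, the ligand of a second death receptor and an interferon-inducible gene. Its values were 1.06, 0.81 and 0.89 in B_TNF_KO and 1.00, 0.82 and 0.75 in TB_TNF_KO. The groups overlapped in part, with TB_TNF_KO array 3 below and B_TNF_KO array 1 above all arrays of the other group. The difference of -0.09 (SE 0.09, 95% interval -0.31 to 0.12, adjusted p = 0.68) was within the spread between pools. Without TB_TNF_KO replicate 3 it was -0.011, and with TB_TNF_KO replicates 1 and 2 left out -0.18. The 9 measured interferon-stimulated genes of a fixed list all had lower values, against 55.0% of all genes, with a median difference of -0.15 and 3 at an unadjusted p under 0.05, against 11.2% of all genes. Their part in the Tnfsf10 values was not tested.

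Fadd encodes the adaptor that links death receptors to caspase-8. Its log2 ratios were 0.65, 0.95 and 0.75 in B_TNF_KO and 0.44, 0.44 and 0.66 in TB_TNF_KO. The groups overlapped only through TB_TNF_KO array 3, which lay just above B_TNF_KO array 1. The difference was -0.24 (SE 0.11, 95% interval -0.50 to 0.03, adjusted p = 0.36). The difference was -0.36 with replicate 3 of both groups left out and -0.12 with TB_TNF_KO replicates 1 and 2 left out. Each of these fits had 1 TB_TNF_KO sample, so they cannot show whether the size depends on the pools.

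Cflar, the c-FLIP gene, came closest to the threshold. It read 0.67, 0.65 and 0.67 on the B_TNF_KO arrays and 0.28, 0.23 and 0.36 on the TB_TNF_KO arrays. The B_TNF_KO arrays were nearly identical and all TB_TNF_KO arrays lay well below them. Means were 0.66 ± 0.0090 (SD, n = 3) and 0.31 ± 0.08 (SD, n = 2), a difference of -0.36 (SE 0.05, 95% interval -0.48 to -0.24, unadjusted p = 0.00035, adjusted p = 0.056 in limma). The sample channel, however, showed no such gap. Normalised on its own, the Cflar sample signal was 8.66, 8.58 and 8.63 on the log2 scale in B_TNF_KO and 8.61, 8.56 and 8.63 in TB_TNF_KO, which overlap and differ by -0.017 (SE 0.06, adjusted p = 0.905). The reference signal, from the same RNA on every array, was 8.89, 8.82 and 8.89 on the B_TNF_KO arrays and 9.19, 9.16 and 9.14 on the TB_TNF_KO arrays, a difference of 0.29 (SE 0.04, unadjusted p = 0.0010, adjusted p = 0.12). With each channel normalised on its own, the groups thus differed in the reference signal and not in the sample signal. The 2 channels of a probe can also move together. For the dimmer Birc2 probe they differed by 0.20 (SE 0.11) in the sample and 0.18 (SE 0.15) in the reference, with a ratio difference of 0.0066. Whether the Cflar ratio reflects a difference in node RNA was not tested.

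**Figure D2:**
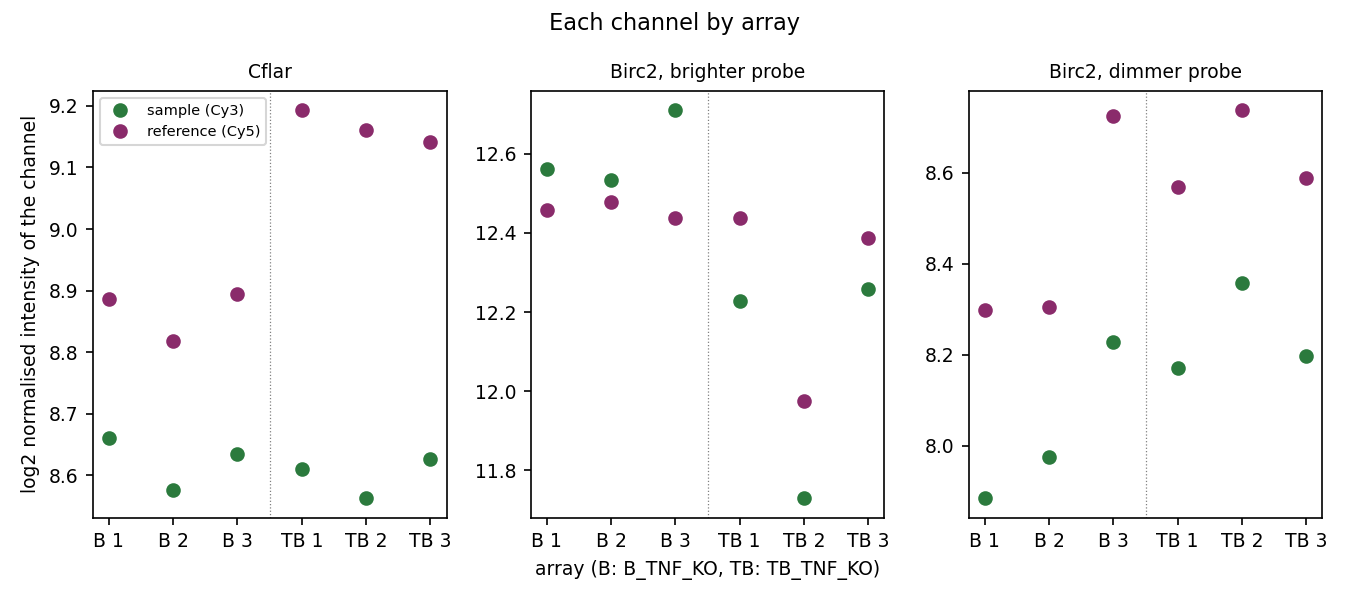
Log2 normalised intensity (y axis) of the sample channel (green) and the reference channel (purple) on each of the 6 arrays (x axis) for Cflar and both Birc2 probes, with each channel normalised on its own. For Cflar the sample points stay between 8.56 and 8.66 while the reference points step from at most 8.89 to at least 9.14, whereas for the brighter Birc2 probe the sample points are lower on all TB_TNF_KO arrays.

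Birc2 encodes cIAP1. Its brighter probe gave 1.32, 1.33 and 1.51 in B_TNF_KO and 1.00, 0.88 and 1.05 in TB_TNF_KO, without overlap. Means were 1.39 ± 0.10 (SD, n = 3) and 0.99 ± 0.08 (SD, n = 2), and the difference of -0.39 (SE 0.07, 95% interval -0.57 to -0.21, unadjusted p = 0.0018, adjusted p = 0.081) was the largest among the member probes. Here the sample channel moved too, by -0.48 (SE 0.10, adjusted p = 0.065), with every TB_TNF_KO array below every B_TNF_KO array, and the reference channel by -0.16 (SE 0.06). Both sizes lean on TB_TNF_KO array 2, where both channels of this probe were low. The sample signal was 11.73 there against 12.23 on array 1, and the reference signal 11.97 against 12.44. The dimmer Birc2 probe did not share the lower log ratio. It read 0.38, 0.48 and 0.39 in B_TNF_KO and 0.40, 0.42 and 0.44 in TB_TNF_KO, a difference of 0.0066 (SE 0.05, 95% interval -0.12 to 0.13, adjusted p = 0.97). Per sample, the gap between the brighter and the dimmer probe averaged 0.97 ± 0.14 (SD, n = 3) for B_TNF_KO pools against 0.57 ± 0.06 (SD, n = 2) for TB_TNF_KO. The change of that gap, -0.40, had a two-sided exact permutation p of 0.10, the smallest that 10 splits of 5 samples can give. A call on Birc2 as a gene thus rests on 1 of its 2 probes, and with the mean of both the difference was -0.19 (SE 0.05, adjusted p = 0.14).

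Birc3, which encodes cIAP2, had the highest ratio to the cell lines of all members, with 2.46, 2.46 and 2.53 in B_TNF_KO and 2.32, 2.30 and 2.40 in TB_TNF_KO. The groups did not overlap, but the step was small at -0.13 (SE 0.05, 95% interval -0.26 to -0.0039, unadjusted p = 0.045, adjusted p = 0.29). Its reference channel differed by -0.12 (SE 0.04) in the same direction and its sample channel by -0.09 (SE 0.06).

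Traf1 and Traf2 encode the adaptors that carry the IAPs to TNF receptors. Traf1 read 1.47, 1.66 and 1.63 in B_TNF_KO and 1.47, 1.42 and 1.62 in TB_TNF_KO, with overlap and a difference of -0.05 (SE 0.08, 95% interval -0.25 to 0.15, adjusted p = 0.82). Traf2, the dimmest member probe, read 0.37, 0.70 and 0.55 in B_TNF_KO and 0.37, 0.46 and 0.41 in TB_TNF_KO. Its difference was -0.13 (SE 0.10, 95% interval -0.37 to 0.10, adjusted p = 0.58), and the groups overlapped.

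The separation of the groups did not carry over from the ratio to the channels probe by probe. In the log ratio 4 of 11 member probes had all TB_TNF_KO arrays below all B_TNF_KO arrays, against 17.1% of all probes. In the opposite direction there were 0 of 11, against 10.7% of all probes. In the sample channel alone 5 of 11 were lower without overlap, against 17.8% of all probes, and 0 higher, against 14.9%. Only the brighter Birc2 probe and Birc3 did so in both, 2 of 11 against 10.3% of all probes. The other 3 in the sample channel were both Fas probes (-0.16, SE 0.08, and -0.33, SE 0.12, for the brighter and the dimmer) and Fadd (-0.32, SE 0.11). In the reference channel these probes differed in the same direction, by -0.17 (SE 0.07), -0.23 (SE 0.08) and -0.15 (SE 0.05) in that order. None of the 11 passed the adjusted threshold in the sample channel with limma (all probes: 0.755% lower, 0.610% higher), and 3 of 11 had an unadjusted p under 0.05, all lower, against 11.9% of all probes lower and 10.7% higher. In the reference channel, which holds no node RNA, 3 of 11 were lower without overlap (Birc3, Fadd and the dimmer Fas probe), against 20.0% of all probes, and Cflar was higher without overlap, as were 11.2% of all probes. Cflar and Fasl were lower without overlap in the ratio but overlapped in the sample channel, 2 of 11 against 6.15% of all probes. Fasl differed by -0.15 (SE 0.07) in the sample channel, with overlap, and by -0.00075 (SE 0.08) in the reference channel.

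**Figure D3:**
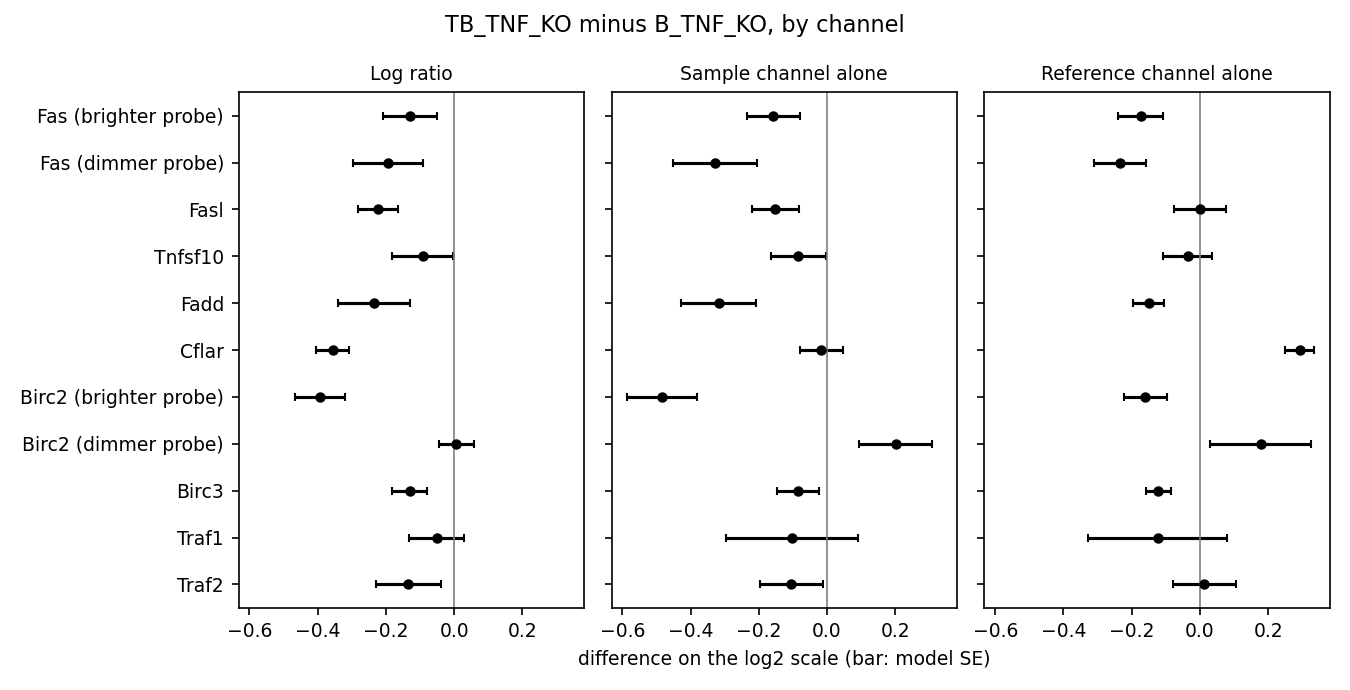
Difference of TB_TNF_KO minus B_TNF_KO on the log2 scale (x axis) for each member probe (y axis), in the log ratio, the sample channel alone and the reference channel alone; bars are the model's SE. Cflar is at -0.36 in the log ratio and at -0.017 in the sample channel, while the brighter Birc2 probe is at -0.39 and -0.48.

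Base composition varied with the differences on these arrays, and its part in the members' values was not tested. Among all probes, 22.3% of those with a GC content above 35% and up to 40% had TB_TNF_KO arrays below B_TNF_KO arrays without overlap, against 7.05% of those above 50%. Both Fas probes, Tnfsf10, Cflar and the brighter Birc2 probe lay in that first class, and Fadd in the class with still lower GC content, where the share was 31.0%. After a loess correction of each array on GC content, Cflar was at -0.35 and the brighter Birc2 probe at -0.38. Fasl was at -0.23 and Fadd at -0.21. The median difference of all probes ran only from -0.055 in the lowest GC class to 0.017 in the highest. A correction of that centre could move these values little, so it cannot decide the part of base composition.

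A further 7 lists covered the rest of the pathway, 79 of 90 genes measured, each gene by its brightest probe. None of the 79 passed in limma, against 0.0134% of all genes lower. At an unadjusted p under 0.05 there were 20 lower (25.3%) and 4 higher (5.06%), against 11.2% and 4.97% of all genes. With the 6 arrays counted separately 11 were lower and 1 higher past the threshold, against 4.61% and 1.41% of all genes. The list medians ran from -0.20 for the other IAPs and their antagonists to -0.016 for the other death receptors and ligands.

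Among the 14 receptors and ligands, an unadjusted p under 0.05 was reached by 3 with lower and 1 with higher values, against 11.2% and 4.97% of all genes. Tnfsf12, encoding the ligand TWEAK, differed by -0.34 (SE 0.05, adjusted p = 0.055). It was the pathway gene that passed in the sample channel alone (-0.57, adjusted p = 0.049), as did 0.767% of all genes in the lower direction. The reference channel, which holds no node RNA, differed by -0.28 in the same direction for Tnfsf12. Its receptor gene Tnfrsf12a differed by 0.22 (SE 0.07, adjusted p = 0.21). The ectodysplasin receptor gene Edar lay at -0.22 and the TNF receptor gene Tnfrsf1a at -0.17. In this list 3 of 14 genes were lower and 2 higher without overlap, against 17.1% and 10.7% of all probes.

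Of 13 adaptors, kinases and ubiquitin enzymes 2 were lower at an unadjusted p under 0.05, against 11.2% of all genes. These were the death domain adaptor Cradd (-0.25, SE 0.04, adjusted p = 0.067) and the deubiquitinase Cyld (-0.23, SE 0.09). The kinase genes Ripk1 and Ripk3, which act beside FADD, lay at -0.018 and 0.016; both genes were picked with their values in view. In the other TRAF genes, Tank, a TRAF-binding regulator, was at -0.27 (SE 0.07, adjusted p = 0.12), Traf6 at -0.10 and Traf4 at 0.19 (SE 0.05, adjusted p = 0.13).

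Of 11 downstream caspases and nucleases 10 had lower values, against 55.0% of all genes. An unadjusted p under 0.05 was reached by 4, all lower, against 11.2% of all genes lower. Casp2 differed by -0.25 (SE 0.05, adjusted p = 0.10) and its second probe by -0.32. Endog, a mitochondrial nuclease gene, was at -0.25 and Casp6 at -0.16. Of 9 other IAPs and antagonists 4 were lower and 1 higher at an unadjusted p under 0.05, against 11.2% and 4.97% of all genes. Diablo, whose product blocks IAPs, was at -0.26 (SE 0.07) with a second probe at 0.013. Htra2, another IAP antagonist, was at -0.23 and Septin4 at -0.31 (SE 0.05, adjusted p = 0.064). Naip1 was at -0.24, with its sample channel at 0.10 and its reference channel at 0.38.

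In the BCL2 family of 14, that p was reached by 3 genes with lower and 1 with higher values, against 11.2% and 4.97% of all genes. The survival gene Bcl2a1b differed by -0.26 (SE 0.04, adjusted p = 0.063); it belongs to a cluster of near-identical copies whose signals the probe may not separate. The BH3-only genes Pmaip1, Bad and Hrk were at -0.23, -0.12 and 0.12. Of 12 genes for NF-kB subunits, their inhibitors and the IKK complex 3 were lower at an unadjusted p under 0.05, against 11.2% of all genes. Ikbkg, the regulatory subunit of the IKK complex, was at -0.31 (SE 0.08, adjusted p = 0.14), Relb at -0.23, Rel at -0.22 and Ikbkb at -0.23. These genes were picked for arrays that do not overlap between the groups. In this list 5 of 12 genes were lower without overlap and 0 higher, against 17.1% and 10.7% of all probes.

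**Figure D4:**
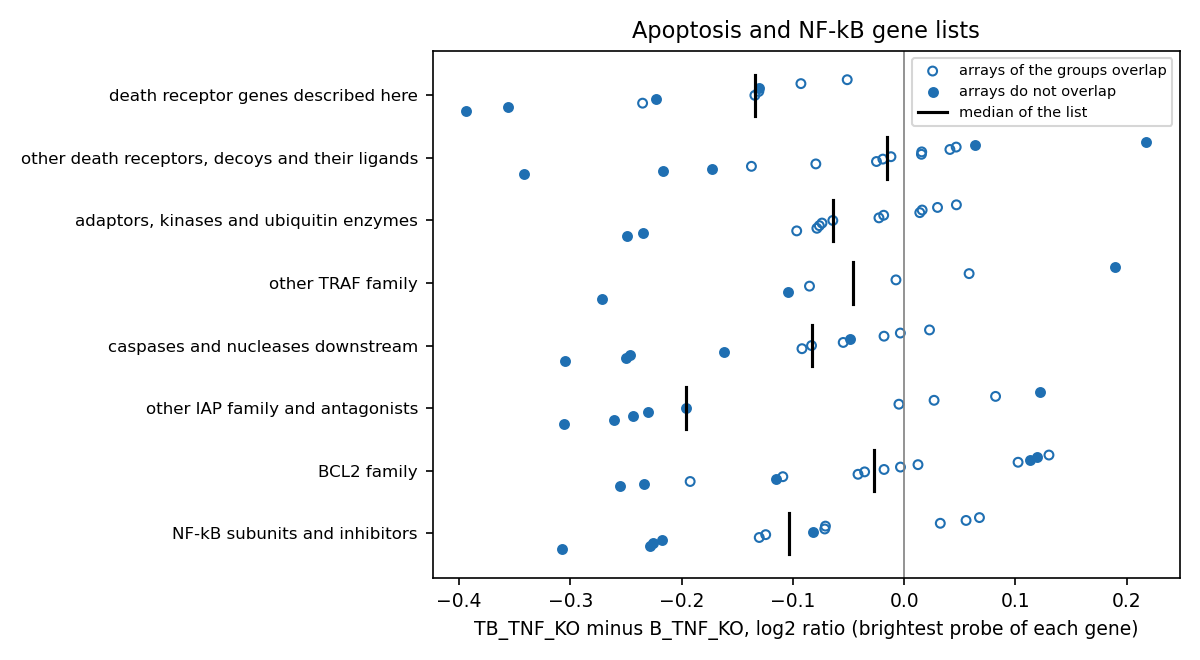
Difference of TB_TNF_KO minus B_TNF_KO in the log2 ratio (x axis) for each gene of the death receptor set and of 7 related lists (y axis), 1 point per gene by its brightest probe; filled points have arrays that do not overlap between the groups and black bars are list medians. The median is -0.13 for the death receptor genes and between -0.20 and -0.016 for the other lists.

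The 3 members with the widest range over the arrays were the brighter Birc2 probe (0.63), Fadd (0.51) and Cflar (0.44). Likeness to each was measured as Pearson's r over the 6 arrays among 12163 other genes, as a description only, since the arrays share a reference and 2 of them are near copies. For Birc2 the nearest were Casp2, Snrnp27 and Sdad1 (r = 0.999, 0.998 and 0.998), with 671 genes above an r of 0.95. Cflar was nearest to Sub1, S100a10 and Dclre1a (r = 0.999 each), with 586 above 0.95. Fadd was nearest to Vmp1, Bckdha and 4930578I06Rik (r = 0.994, 0.993 and 0.990), with 82 above 0.95. Such r values were common here and single out no partner.

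The processing moved the sizes more than the directions. Over the alternatives run, the brighter Birc2 probe stayed lower in the 25 that measured it on its own, from -0.53 to -0.33, and passed in 3. Cflar was lower in 26 of 26, from -0.41 to -0.017, and passed in 5. With the 6 arrays counted separately these were the 2 of 11 member probes past the threshold (adjusted p = 0.020 for Birc2 and 0.010 for Cflar), both lower, against 4.58% of all probes lower and 1.46% higher. The p-values of that fit are too small if TB_TNF_KO arrays 1 and 2 held 1 RNA. Fasl ranged from -0.28 to -0.13 and passed in 0 of 26 (smallest adjusted p = 0.095).

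**Figure D5:**
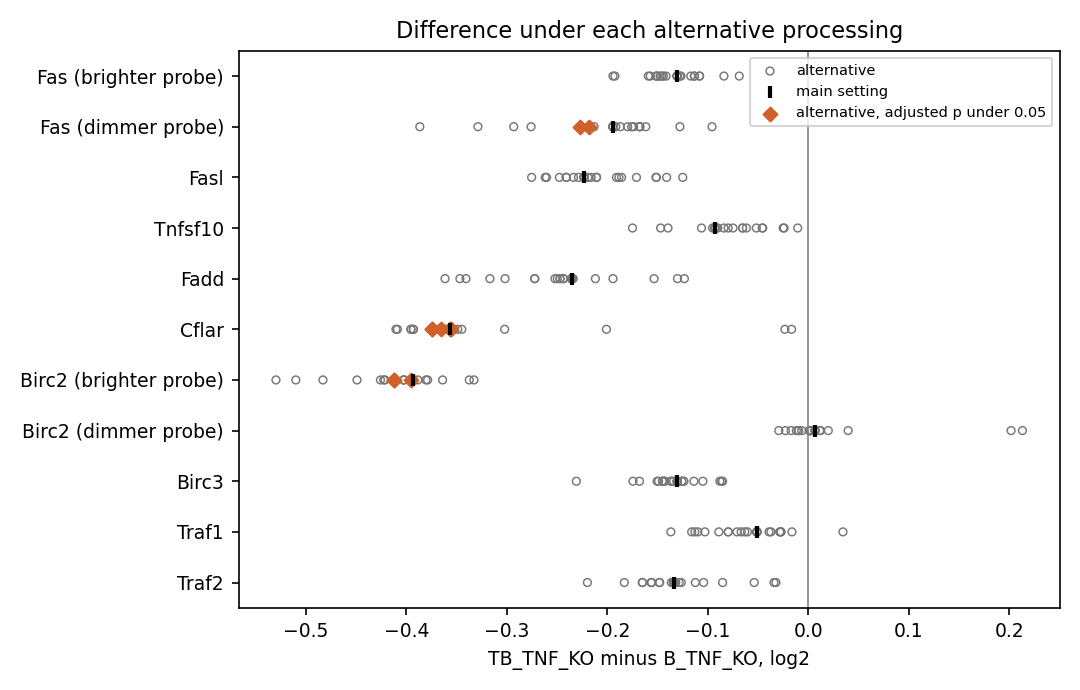
Difference of TB_TNF_KO minus B_TNF_KO on the log2 scale (x axis) for each member probe (y axis) under the main setting (black bar) and each alternative (circles; the mean of 2 probes is not drawn); orange diamonds are alternatives with an adjusted p under 0.05. Diamonds appear for Cflar, the brighter Birc2 probe and the dimmer Fas probe, and the 2 Cflar circles near 0 are the sample channel alone.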

How the data were processed

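RNA of 6 pools was measured on 6 two-colour Agilent arrays. The scans were processed by the authors with Agilent Feature Extraction A.7.5.1, per the file headers, which also list LOWESS settings for dye normalisation. Each deposited file holds mean spot intensity and background intensity per channel, besides the software's own log10 ratio (Cy5 over Cy3). The deposited series table holds log10 values that tracked the processed Cy3 signal (r across spots 0.993 to 0.996, column medians 2.98 to 2.99); its centring and any scaling between arrays stay unknown.

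Intensities were corrected with normexp (offset 50) and loess-normalised per array in limma 3.58.1 (R 4.3.3), with control spots at weight 0 and 228 outlier spots left out. Ratios were turned to sample over reference and put on the log2 scale. Probes stayed in if their Cy3 signal was well above background on 3 or more arrays, and 40791 were tested with lmFit and eBayes. Single channels were quantile normalised. A RefSeq table (GRCm38.p6) gave symbols to 15303 of 41034 spots. Probes were not placed on a genome. The fit was tested on simulated data.

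Nothing beyond the labels shows that pools came from separate animals, so p-values measure the spread between these samples, and precision is limited by their number. The members, lists and tests were chosen with earlier results of these data known. Same-numbered arrays deviated together from their group means (r = 0.13, 0.53 and 0.62 for numbers 1, 2 and 3), a pairing seen in the data and not stated in the labels. Every member probe is named. Each other list names up to 4 genes, those past the threshold first and then by unadjusted p among those without overlap, and the 3 members with the widest range are given the 3 genes with the highest r. A gene that this rule selects is not reported here. Alternatives covered background, normalisation, channels, the authors' values, filters, probe handling, the spread model, array weights, GC content, the replicate block and arrays left out. Figures were drawn with matplotlib 3.10.9.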

Additional observations from a re-analysis of the deposited data

How the results depend on the processing

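Against 0 probes higher and 6 lower over all probes, the 6 arrays counted separately gave 597 and 1868, and the replicate block with the 6 arrays counted separately 738 and 2534, or 686 and 2213 with the GC correction added. Array weights gave 97 and 311, eBayes with trend and robust 77 and 210, the sample channel alone 249 and 308, and that channel with all 6 arrays kept apart, an alternative chosen after seeing the data, 1430 and 1734. The lower count was 0 with background subtraction without offset, with no background subtraction, with the authors' series table, with replicate 3 of both groups left out and with TB_TNF_KO replicates 1 and 2 left out. It was 1 with the authors' log ratio and 2 with the mean of all probes, and 4 with the brightest probe of each gene. With 1 replicate left out in turn it ranged from 0 to 5, at 0 without B_TNF_KO replicate 2 or TB_TNF_KO replicate 3. The member count, 0 higher and 0 lower, became 2 lower with the 6 arrays counted separately (Birc2 and Cflar), 3 with the replicate block, with or without the GC correction (also Fas), and 1 with array weights or with trend and robust (Cflar). Leaving out 1 replicate also gave 0, which says nothing of stability in so small a fit; without TB_TNF_KO replicate 3 that group is 1 sample, assumed to vary like the other. The block changed no other member call. The dimmer Birc2 probe, at 0.0066, turned to -0.029 with median centring, -0.012 with the GC correction, -0.017 with the GC correction and the replicate block, and -0.023 with replicate 3 of both groups left out, and lay between -0.010 and 0.040 with 1 replicate left out. Traf1 turned to 0.034 with TB_TNF_KO replicates 1 and 2 left out. For none of these was the cause tested, though leaving out arrays by itself shrinks the fit. The remaining 264 member values under the alternatives kept their direction and their side of the threshold.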
